A study of Homo sapiens with 29 samples.

Results

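The 37 genes described here encode enzymes that load amino acids onto transfer RNA, and a pair of proteins that hold several of those enzymes together. They were taken from a list of names, out of 19785 protein-coding genes. No measured value entered the rule, but the list was chosen with earlier results of these data known. Of the 37, 19 encode cytosolic synthetases, 16 encode mitochondrial synthetases (synthetase names ending in 2) and 2, AIMP1 and AIMP2, encode scaffold proteins. HARS1 and HARS2 lie back to back on one promoter, so the 37 genes have 36 promoters.

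The study mapped by ChIP-seq where subunits of the INO80 complex sit in the genomes of HepG2 and Huh7, human liver cancer lines. For the study's own libraries used here, the cells were untreated and were fixed in 0.3% formaldehyde. Behind the INO80 lists stand 3 HepG2 libraries and 2 Huh7 libraries. The MCRS1 and RUVBL2 lists rest on 2 libraries per line, the RUVBL1 list on 2 HepG2 libraries and the Huh7 YY1 list on 2 libraries. The submitters made the HepG2 YY1 list from a pair of public ENCODE files. Those have no sample record in the series, so their treatment and fixation are not given. The deposit holds 1 peak list per factor and line, 9 in all, so nothing below has a replicate error or a test.

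Each list gives peak positions alone, without heights, so occupancy is given as presence of a peak within 1 kb of a coding transcript start and as the peak's width in base pairs. Lists held between 3322 peaks (RUVBL2 in Huh7) and 39293 peaks (YY1 in HepG2), and the read depth behind them is unknown. A longer list marks more genes, so the members' counts are set beside the share of all coding genes marked in the same list. HepG2 INO80 libraries A and B used another antibody lot than HepG2 C and both Huh7 libraries, and antibody lot, library number and line cannot be told apart in the INO80 comparison. For YY1 the HepG2 list came from ENCODE files and the Huh7 list from the study's own libraries. Source and line therefore cannot be told apart in any YY1 comparison between the lines. For RUVBL1 the labels pair an antibody vendor with a catalogue number in another vendor's form, so which antibody gave that list is uncertain. Of 6 hepatocyte marker genes, INO80 lay at 6 in HepG2, beside 63.7% of coding genes, and at 1, HNF4A, in Huh7, beside 47.7%. The HNF4A peak spanned 147 bp, and no bound coding gene of that list had a narrower widest peak. Of 4 matched marker genes of blood, fibroblast and neuron, INO80 lay at none in HepG2 and at 1, SYP, in Huh7, beside the same shares.

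Aminoacyl-tRNA synthetases join each amino acid to its matching tRNA and so set the genetic code at every translated codon. Cytosolic enzymes serve nuclear-encoded messages, while a separate nuclear-encoded set is imported to serve the mitochondrial genome; KARS1 and GARS1 each give both forms. INO80 is the ATPase of a remodelling complex that moves and edits nucleosomes, RUVBL1 and RUVBL2 are paired ATPases in it and in several other complexes, MCRS1 is one of its accessory subunits, and YY1 is a DNA-binding protein that associates with it and is known for binding just downstream of transcription starts.

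The letters ATGGCGGC, the core of the known YY1 site, were found at 6 members, and the 30 bases around each are printed. Every one of the 6 matches lay under a YY1 peak in both lines. The widest YY1 peak covered the reference start at 36 of 37 members in HepG2 and at 29 of 34 bound members in Huh7. Most matches of the other motifs searched also lay under YY1 in HepG2, so this placement does not set the YY1 letters apart. The printed bases are given 5′ to 3′ on the gene's strand from hg19, with the searched letters in capitals.
KARS1 (chr16:75681519-75681548, minus strand): cctccgggaagATGGCGGCcgtgcaggcgg
NARS1 (chr18:55289129-55289158, minus strand): cctcaccaaagATGGCGGCcccggcgccgc
QARS1 (chr3:49142148-49142177, minus strand): gtgtctctgcaATGGCGGCtctagactccc
EARS2 (chr16:23568646-23568675, minus strand): ttccatcccacATGGCGGCgctcctgagga
LARS2 (chr3:45430071-45430100, plus strand): gttttgacaacATGGCGGCgcccatggtcc
YARS2 (chr12:32908790-32908819, minus strand): ccgctaccaagATGGCGGCgcccatcttgc

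These letters were searched on both strands of a window from 250 bases before to 50 bases after each gene's reference start. They occurred in 6 of 37 member windows (16.2%) and in 4.57% of the windows of all coding genes. With 1 mismatch allowed they occurred in 19 member windows, beside 34.4%. All 6 member matches ran in the gene's own direction, and the letters ran that way in 630 of the 904 coding windows that held them. Of the 6 matches, 5 began after the start, beside 496 of the 630. Those 5 lay at positions 7 to 26 counted from the start base as 0, and the NARS1 match began at position -79. In KARS1, QARS1, EARS2 and YARS2 the ATG of the match was itself an annotated start codon, so the same letters open the protein's reading frame. Among all coding genes with the letters in the gene's direction, the ATG was an annotated start codon in 328 of 630 (52.1%), beside 4 of 6 members (66.7%). INO80 peaks covered all 6 matches in HepG2 and all but the EARS2 match in Huh7.

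In HepG2, INO80 lay at the start of every one of the 37 genes, as did MCRS1 and YY1. INO80 marked 63.7% of all coding genes in that list, MCRS1 58.1% and YY1 62.6%. The 3 factors together marked 37 of 37 members, beside 54.1% of coding genes. RUVBL2 lay at 25 members (67.6%), beside 39.1% of coding genes, and RUVBL1 at 16 (43.2%), beside 16.8%.

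In Huh7, where every list was shorter, YY1 lay at 34 members (91.9%), beside 51.5% of coding genes. INO80 lay at 32 (86.5%), beside 47.7%. MCRS1 lay at 20 (54.1%), beside 21.8%, and RUVBL2 at 8 (21.6%), beside 12.7%. INO80, MCRS1 and YY1 together marked 17 members in Huh7, beside 19.8% of coding genes.

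All coding genes include silent ones, so the same shares were taken over coding genes that any of the factors marked in the other line. On that base INO80 marked 92.4% in HepG2 and 66.3% in Huh7, YY1 89.5% and 71.3%, and MCRS1 86.6% and 30.8%. RUVBL2 marked 61.9% in HepG2 and 17.9% in Huh7, and RUVBL1 27.1% in HepG2. The members' shares were above these in all 9 lists, by 3.7 percentage points for RUVBL2 in Huh7 and by 23.3 for MCRS1 in Huh7. Presence of INO80 at these genes rested on peaks of ordinary width: with each list held to its 3322 widest peaks, INO80 marked 6 members in HepG2, beside 15.6% of coding genes, and 8 in Huh7, beside 15.3%.

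**Figure D1:**
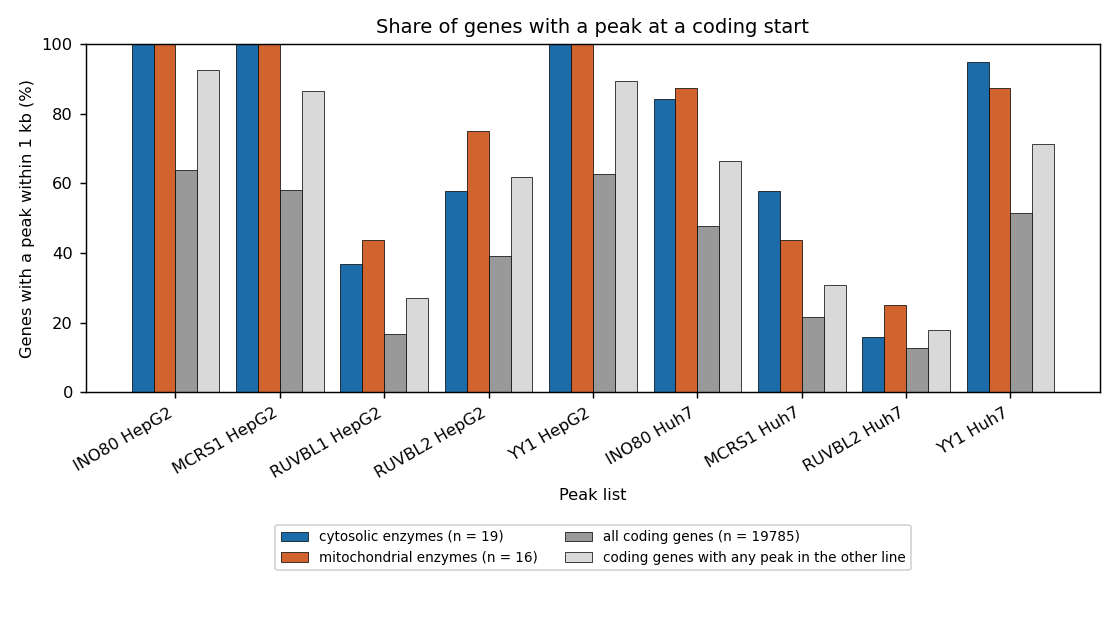
Share of genes with a peak within 1 kb of a coding start (y axis, percent) in each of the 9 peak lists (x axis). Bars show the 19 cytosolic enzymes, the 16 mitochondrial enzymes, all 19785 coding genes, and coding genes with any peak in the other line. Both enzyme groups stand at 100% for INO80, MCRS1 and YY1 in HepG2.

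Cytosolic and mitochondrial enzymes were marked to similar extents in most lists. INO80 in Huh7 lay at 16 of 19 cytosolic and 14 of 16 mitochondrial genes, and YY1 in Huh7 at 18 of 19 and 14 of 16. RUVBL2 in HepG2 lay at 11 of 19 cytosolic and 12 of 16 mitochondrial genes, RUVBL1 at 7 of 19 and 7 of 16, and RUVBL2 in Huh7 at 3 of 19 and 4 of 16. MCRS1 in Huh7 ran the other way, at 11 of 19 cytosolic and 7 of 16 mitochondrial genes. With groups of this size and 1 list each, none of these differences was tested.

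Of the cytosolic enzymes, 7 belong to the multi-synthetase complex that AIMP1 and AIMP2 hold together, namely EPRS1, IARS1, KARS1, LARS1, MARS1, QARS1 and RARS1. INO80 lay at 7 of these 7 in HepG2 and 6 in Huh7, MCRS1 at 7 and 5, YY1 at 7 and 7, RUVBL2 at 4 and 1, and RUVBL1 at 4 in HepG2. The other 12 cytosolic genes had INO80 at 12 and 10, MCRS1 at 12 and 6, YY1 at 12 and 11, RUVBL2 at 7 and 2, and RUVBL1 at 3 in HepG2. The shares over all coding genes are those already given for each list, and the difference between these groups was not tested.

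INO80 was present in both lines at 32 members, beside 45.3% of coding genes, and in HepG2 alone at 5, beside 18.4%. No member had INO80 in Huh7 alone, a state found at 2.40% of coding genes, and none lacked it in both lines, a state found at 33.9%. The 5 genes marked in HepG2 alone were HARS1, HARS2, RARS1, WARS1 and IARS2, which load histidine (both), arginine, tryptophan and isoleucine. At WARS1 no factor had a peak in Huh7, whereas HARS1, HARS2, RARS1 and IARS2 each kept a YY1 peak there. When the peak's centre had to lie within 250 bp of a start, INO80 marked 20 members in both lines, 9 in HepG2 alone and 5 in Huh7 alone, with 39.7% of coding genes marked in HepG2 and 28.1% in Huh7.

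A gene was marked in a median of 6 of the 9 lists among members (range 4 to 9) and 4 among all coding genes (range 0 to 9). The members in all 9 lists were AARS1, IARS1, EARS2, SARS2 and AIMP2, a state held by 5.26% of coding genes. WARS1 and PARS2 were in the fewest lists, 4 each.

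**Figure D2:**
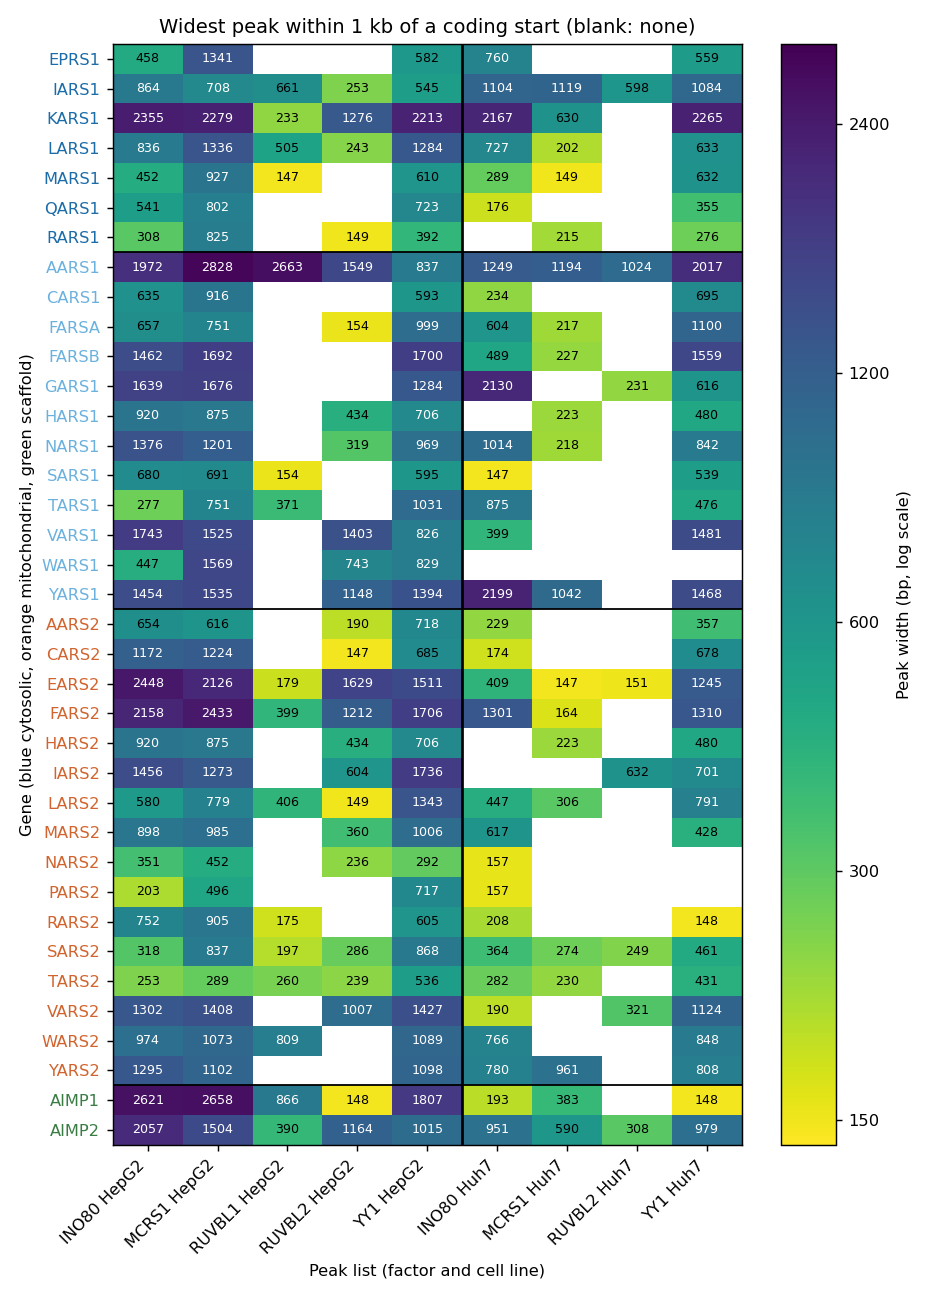
Width in base pairs (colour on a log scale, value printed) of the widest peak within 1 kb of a coding start for each of the 37 genes (rows) in each of the 9 lists (columns), with HepG2 left of the heavy line. Blank cells have no peak. The INO80, MCRS1 and YY1 columns of HepG2 have no blank cell, and WARS1 is blank across Huh7.

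AARS1, the alanyl-tRNA synthetase, carried the widest MCRS1 and RUVBL1 peaks of all members in HepG2. Its widest peaks measured 1972 bp for INO80, 2828 bp for MCRS1, 2663 bp for RUVBL1, 1549 bp for RUVBL2 and 837 bp for YY1 in HepG2. In Huh7 they measured 1249 bp for INO80, 1194 bp for MCRS1, 1024 bp for RUVBL2 and 2017 bp for YY1. The INO80 peak lay almost wholly downstream of the reference start, at positions -17 to 1954 (HepG2) and 38 to 1286 (Huh7), and RUVBL2 lay from 53 to 1601 in HepG2. YY1 in HepG2 instead straddled the start, from -492 to 344. An alternative start of the RNA helicase gene DDX19B lies on the other strand 60 bp from an AARS1 start, although the reference starts of the pair are 9680 bp apart. Distances to facing genes here and below are between the nearest annotated starts.

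IARS1, the isoleucyl-tRNA synthetase of the multi-synthetase complex, had narrower peaks. They measured 864 bp for INO80, 708 bp for MCRS1, 661 bp for RUVBL1, 253 bp for RUVBL2 and 545 bp for YY1 in HepG2. In Huh7 they measured 1104 bp for INO80, 1119 bp for MCRS1, 598 bp for RUVBL2 and 1084 bp for YY1, each wider than in HepG2. Huh7 also had a second, smaller peak of INO80 (570 bp), MCRS1 (207 bp) and YY1 (185 bp) inside the gene, with INO80 from position 912 to 1481, and MCRS1 alone had one there in HepG2 (350 bp).

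EARS2, the mitochondrial glutamyl-tRNA synthetase, shares its start region with UBFD1, whose nearest start is 4 bp away. INO80 spanned 2448 bp in HepG2 and 409 bp in Huh7, MCRS1 2126 bp and 147 bp, RUVBL2 1629 bp and 151 bp, and YY1 1511 bp and 1245 bp. RUVBL1 spanned 179 bp in HepG2. The YY1 peak was thus of similar width in both lines while the INO80, MCRS1 and RUVBL2 peaks of Huh7 covered only a stretch inside the gene, from position 22 to 430 for INO80.

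SARS2, the mitochondrial seryl-tRNA synthetase, faces MRPS12, a mitochondrial ribosomal protein gene, at 181 bp. Its peaks measured 318 bp and 364 bp for INO80 in HepG2 and Huh7, 837 bp and 274 bp for MCRS1, 286 bp and 249 bp for RUVBL2, and 868 bp and 461 bp for YY1. RUVBL1 spanned 197 bp. For INO80 in HepG2, 9.17% of bound coding genes had a narrower peak than SARS2 and 80.7% a narrower one than AARS1, while for YY1 in HepG2 these shares were 46.6% and 44.3%.

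AIMP2, a scaffold of the multi-synthetase complex, faces the mismatch repair gene PMS2 at 133 bp. INO80 spanned 2057 bp in HepG2 and 951 bp in Huh7, MCRS1 1504 bp and 590 bp, RUVBL2 1164 bp and 308 bp, and YY1 1015 bp and 979 bp. RUVBL1 spanned 390 bp. AIMP1, the other scaffold, faces TBCK at 103 bp and had the widest INO80 peak of all members in HepG2, at 2621 bp, but one of the narrower ones in Huh7, at 193 bp. Its MCRS1 peaks spanned 2658 bp and 383 bp, its YY1 peaks 1807 bp and 148 bp, its RUVBL1 peak 866 bp and its HepG2 RUVBL2 peak 148 bp, with no RUVBL2 peak in Huh7. In Huh7 the AIMP1 INO80 peak lay from position -240 to -48 and the YY1 peak from -466 to -319, so they did not meet.

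HARS1 and HARS2, the cytosolic and mitochondrial histidyl-tRNA synthetases, are transcribed in opposite directions from reference starts with 84 bases between them. The same peaks count for both. In HepG2 the shared promoter had INO80 over 920 bp, MCRS1 over 875 bp, RUVBL2 over 434 bp and YY1 over 706 bp, each covering both reference starts. In Huh7 it had MCRS1 over 223 bp and YY1 over 480 bp, with the nearest INO80 peak 19900 bp from a HARS1 start. The Huh7 MCRS1 peak lay on the HARS2 side, from position 72 to 294 of HARS2. RUVBL1 was absent in HepG2 and RUVBL2 in Huh7.

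The first and last 30 of the 84 bases between the HARS1 and HARS2 starts are printed because each end holds the ETS-family letters CCGGAAGT, in capitals, pointing towards its own gene. They are read on the plus strand of hg19, so the HARS1 copy appears as its reverse complement.
HARS1 side (chr5:140070956-140070985, plus strand): gACTTCCGGctatcgagtcgctgggtcgca
HARS2 side (chr5:140071010-140071039, plus strand): caaaaattatttccggctcctcCCGGAAGT

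The ETS letters were in the windows of 6 members (16.2%), CARS1, HARS1, HARS2, NARS1, EARS2 and PARS2, and of 6.07% of all coding genes. HARS1 and HARS2 share their copies. Every ETS match at a member lay under a YY1 peak in HepG2, as did nearly every match of the other motifs searched. In Huh7 the PARS2 matches lay outside any YY1 peak.

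RARS1, the arginyl-tRNA synthetase, had small peaks in HepG2, 308 bp for INO80, 825 bp for MCRS1, 149 bp for RUVBL2 and 392 bp for YY1. In Huh7 it had MCRS1 over 215 bp and YY1 over 276 bp, with the nearest INO80 peak 92312 bp away. IARS2, the mitochondrial isoleucyl-tRNA synthetase, had wide peaks in HepG2, 1456 bp for INO80, 1273 bp for MCRS1, 604 bp for RUVBL2 and 1736 bp for YY1. In Huh7 IARS2 had RUVBL2 over 632 bp and YY1 over 701 bp, with the nearest INO80 peak at 4131 bp and the nearest MCRS1 peak at 4103 bp. IARS2 thus held a RUVBL2 peak in Huh7 where neither INO80 nor MCRS1 had one within 1 kb.

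WARS1, the tryptophanyl-tRNA synthetase, is a known interferon-induced gene with starts spread over 7620 bp. In HepG2 its peaks measured 447 bp for INO80, 1569 bp for MCRS1, 743 bp for RUVBL2 and 829 bp for YY1. None covered the reference start. INO80 lay from position -898 to -452, 6 bp short of the nearest WARS1 coding start. YY1 lay from -1360 to -532 and overlapped another WARS1 start. Both peaks were near WDR25, which starts on the other strand 98 bp from a WARS1 start. The nearest Huh7 peaks were YY1 at 1870 bp and INO80 at 61893 bp. The window at the WARS1 reference start had 3 CpG dinucleotides and an observed-to-expected CpG ratio of 0.163, the lowest of the members, whose median was 0.815 beside 0.775 for all coding genes. WARS1 was also the one member with the letters TATAAA in its window, beside 9.72% of coding genes. That match lay at position -124 on the strand opposite to the gene, outside the peaks of all 9 lists.

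**Figure D3:**
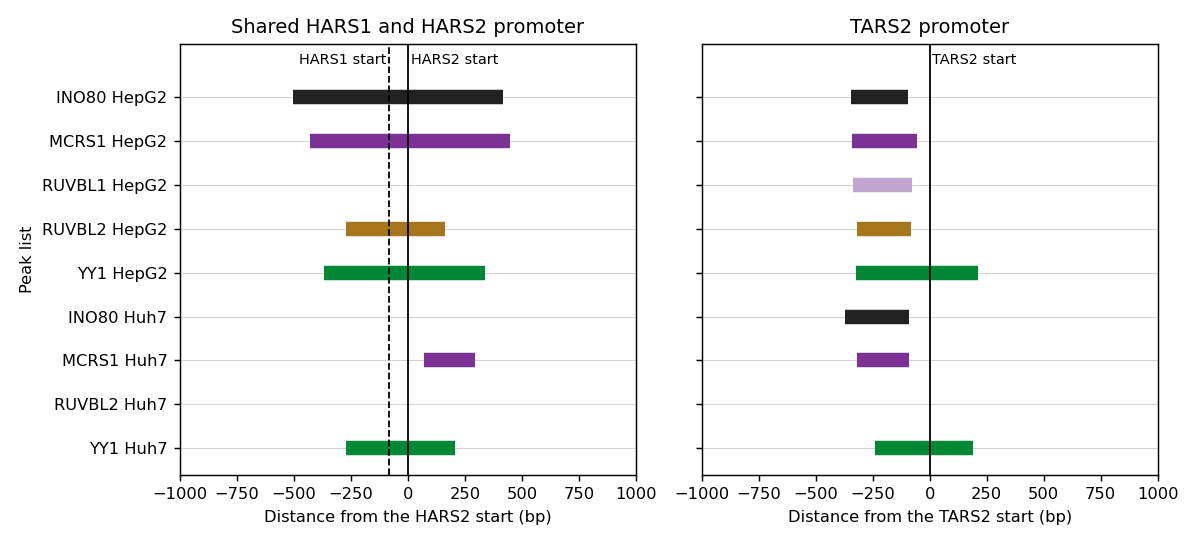
Extent of the peaks (bars) in each of the 9 lists (rows) along the shared HARS1 and HARS2 promoter (left) and the TARS2 promoter (right), as distance in bp from the HARS2 or TARS2 reference start (solid line; the HARS1 start is dashed). HARS1 and HARS2 have INO80 in HepG2 and none in Huh7, while at TARS2 the INO80, MCRS1 and RUVBL bars all end before the start.

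TARS2, the mitochondrial threonyl-tRNA synthetase, was the one member whose INO80 peak ended before the reference start in both lines, at positions -346 to -94 (HepG2) and -370 to -89 (Huh7). MCRS1 (289 bp), RUVBL1 (260 bp) and RUVBL2 (239 bp) in HepG2 and MCRS1 (230 bp) in Huh7 lay over nearly the same stretch as INO80 (253 bp and 282 bp). YY1 reached across the start in both lines, 536 bp in HepG2 and 431 bp in Huh7. All 8 peaks shared the bases from 150459656 to 150459801 on chromosome 1 of hg19. The HepG2 INO80 peak is printed whole, since 5 factors met there outside the transcribed part of the gene; no annotated transcript overlapped it. None of the 9 motifs searched had an exact match in it.
TARS2 INO80 peak (chr1:150459549-150459801, plus strand): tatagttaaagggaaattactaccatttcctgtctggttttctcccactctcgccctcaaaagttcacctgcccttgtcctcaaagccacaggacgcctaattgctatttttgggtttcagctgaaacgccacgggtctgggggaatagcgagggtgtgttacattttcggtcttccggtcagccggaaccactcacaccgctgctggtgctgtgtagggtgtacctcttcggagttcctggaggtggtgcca

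**Figure D4:**
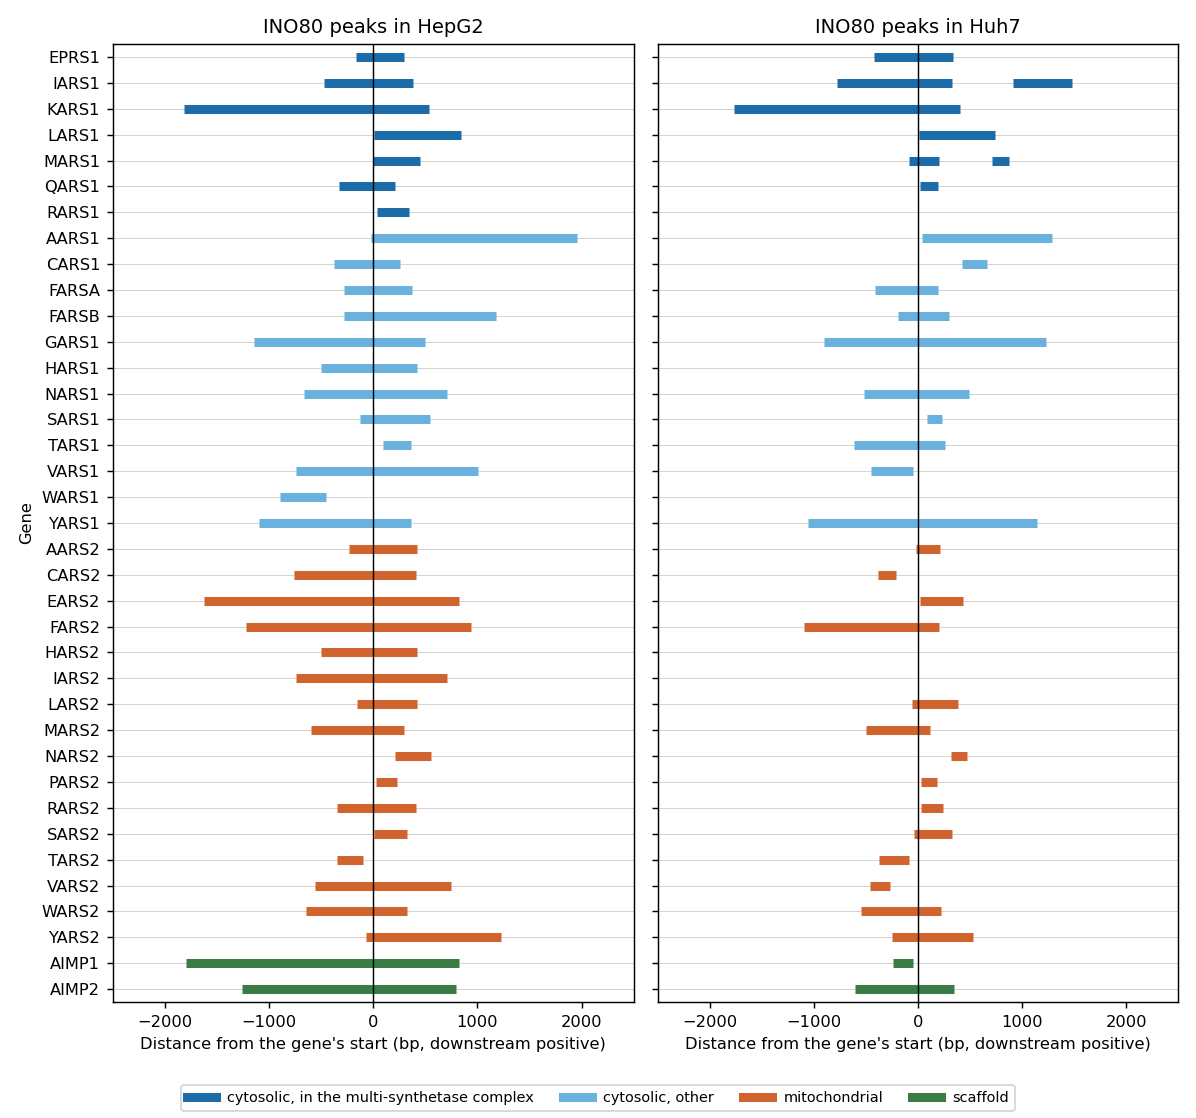
Extent of each INO80 peak (bars) about the reference start of the 37 genes (rows) in HepG2 (left) and Huh7 (right), in bp with downstream positive; colours give the gene group. At 29 genes in HepG2 and 18 in Huh7 the widest peak covers the start.

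Across the members the widest INO80 peak covered the reference start at 29 of 37 genes in HepG2, beside 74.2% of bound coding genes, and at 18 of 32 in Huh7, beside 49.9%. YY1 in HepG2 covered it at 36 of 37, beside 84.7%. INO80 lay wholly downstream of the reference start at 6 members in HepG2 (LARS1, RARS1, TARS1, NARS2, PARS2 and SARS2) and at 9 in Huh7 (AARS1, CARS1, LARS1, QARS1, SARS1, EARS2, NARS2, PARS2 and RARS2). It lay wholly upstream at 2 in HepG2 (WARS1 and TARS2) and at 5 in Huh7 (VARS1, CARS2, TARS2, VARS2 and AIMP1). LARS1, NARS2 and PARS2 were on the downstream side in both lines.

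INO80 peaks at members were narrower than at bound coding genes in general. Their median width was 898 bp in HepG2, beside 1118 bp, and 468 bp in Huh7, beside 635 bp. In HepG2 15 of 37 members and in Huh7 13 of 32 were wider than that general median. MCRS1 had a median of 1073 bp in HepG2, beside 1148 bp, and 228.5 bp in Huh7, beside 310 bp. YY1 was close to the general value, at 868 bp beside 909 bp in HepG2 and 686.5 bp beside 658 bp in Huh7. RUVBL1 (380.5 bp beside 315 bp) and RUVBL2 in Huh7 (314.5 bp beside 277 bp) lay above it, and RUVBL2 in HepG2 (360 bp beside 518 bp) below it.

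The widest INO80 peaks of HepG2 were those of AIMP1 at 2621 bp, EARS2 at 2448 bp and KARS1 at 2355 bp, and the narrowest was that of PARS2, the mitochondrial prolyl-tRNA synthetase, at 203 bp. In Huh7 the widest were those of YARS1 at 2199 bp, KARS1 at 2167 bp and GARS1 at 2130 bp, and the narrowest was that of SARS1, the seryl-tRNA synthetase, at 147 bp. KARS1 was the one gene among the 3 widest of both lines.

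KARS1, the lysyl-tRNA synthetase of cytosol and mitochondria, faces the telomere protein gene TERF2IP at 108 bp, and its broad peaks reached towards that gene, with INO80 at positions -1815 to 539 (HepG2) and -1765 to 401 (Huh7). MCRS1 spanned 2279 bp in HepG2 and 630 bp in Huh7, and YY1 2213 bp and 2265 bp. RUVBL2 spanned 1276 bp and RUVBL1 233 bp in HepG2, with no RUVBL2 peak in Huh7. INO80 and YY1 thus kept their width between lines, and MCRS1 was split in Huh7 into that peak and another of 626 bp upstream.

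YARS1, the tyrosyl-tRNA synthetase, faces S100PBP at 84 bp. INO80 spanned 1454 bp in HepG2 and 2199 bp in Huh7, MCRS1 1535 bp and 1042 bp, and YY1 1394 bp and 1468 bp. RUVBL2 spanned 1148 bp in HepG2 and had no peak in Huh7, and RUVBL1 had none. GARS1, the glycyl-tRNA synthetase of cytosol and mitochondria, has no coding start on the other strand within 1 kb. INO80 there spanned 1639 bp in HepG2 and 2130 bp in Huh7, and YY1 1284 bp and 616 bp. MCRS1 spanned 1676 bp in HepG2 and was absent in Huh7, and RUVBL2 was absent in HepG2 and spanned 231 bp in Huh7. GARS1 was the only member with RUVBL2 in Huh7 and not in HepG2, a state found at 1.42% of coding genes.

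**Figure D5:**
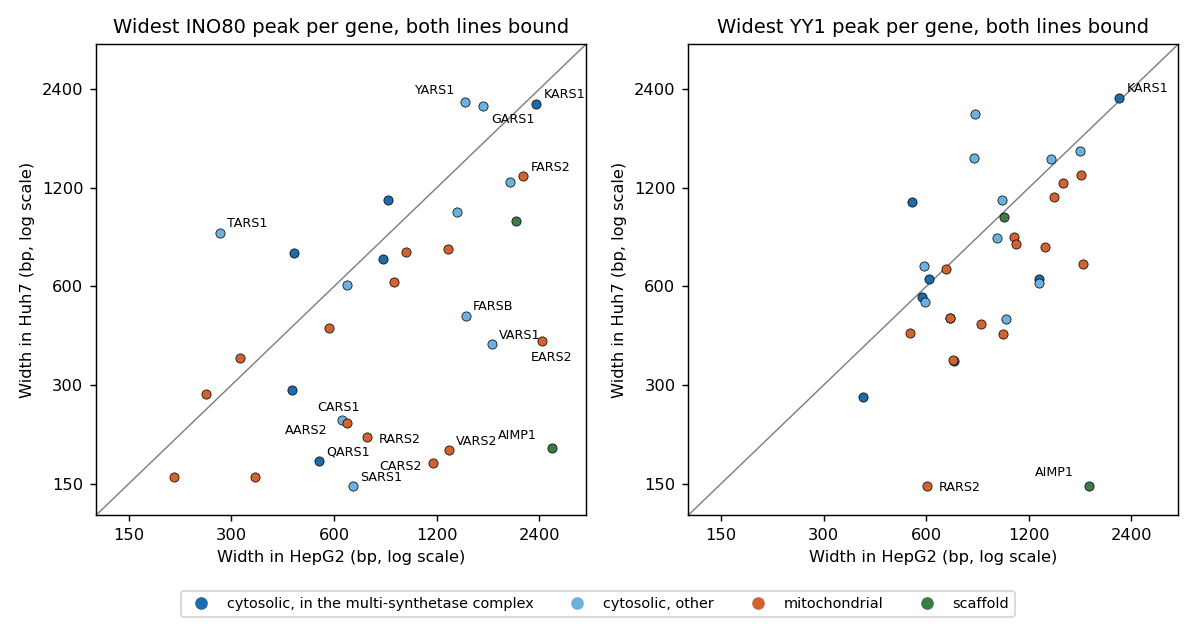
Width of the widest INO80 peak (left) and YY1 peak (right) per gene in HepG2 (x axis) against Huh7 (y axis), both in bp on log scales, for genes bound in both lines; the line marks equal width. TARS1, GARS1 and YARS1 lie above the line for INO80, and AIMP1 and EARS2 lie far below it.

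Where INO80 was present in both lines, its peak was wider in HepG2 at 25 of 32 members, with a median log2 ratio of 0.65, beside 0.83 for all coding genes with both. Cytosolic enzymes had a median ratio of 0.32 (11 of 16 wider in HepG2) and mitochondrial enzymes 0.73 (12 of 14). In Huh7 the median INO80 width was 743.5 bp at cytosolic and 323 bp at mitochondrial genes, while in HepG2 it was 836 bp and 909 bp. For YY1 the median ratio was 0.09 at cytosolic genes (10 of 18 wider in HepG2) and 0.50 at mitochondrial genes (14 of 14). Over all coding genes it was 0.49. The median YY1 width in Huh7 was close in the 2 groups, 664 bp at cytosolic and 689.5 bp at mitochondrial genes. In HepG2 it was 829 bp and 937 bp. The YY1 ratios set an ENCODE list against one of the study's own, so they are not differences between lines alone. The difference between the enzyme groups was not tested.

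The 7 members with INO80 wider in Huh7 were TARS1 (277 bp to 875 bp), EPRS1 (458 bp to 760 bp), YARS1, GARS1, IARS1, SARS2 (318 bp to 364 bp) and TARS2 (253 bp to 282 bp). TARS1 and EPRS1 are the cytosolic threonyl- and glutamyl-prolyl-tRNA synthetases. VARS1, the cytosolic valyl enzyme, went the other way, from 1743 bp to 399 bp, as did its mitochondrial counterpart VARS2, from 1302 bp to 190 bp. CARS2, the mitochondrial cysteinyl enzyme, went from 1172 bp to 174 bp.

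Widths of different factors varied together across member promoters. In HepG2 the Spearman correlation between INO80 and MCRS1 widths was 0.80 over 36 promoters, beside 0.68 over all coding genes with both, and between INO80 and YY1 it was 0.67, beside 0.53. Between INO80 in HepG2 and in Huh7 it was 0.46 over 32 promoters, and 0.46 over all coding genes. These are descriptions across genes, which share the libraries and the peak calling.

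Most INO80 peaks at members met a YY1 peak by at least 1 bp. In HepG2 they met YY1 at 36 of 37 members, beside 88.0% of INO80-bound coding genes, the exception being NARS2, the mitochondrial asparaginyl enzyme. They met MCRS1 at 37, beside 85.8%, RUVBL2 at 25, beside 60.3%, and RUVBL1 at 15, beside 26.6%. In Huh7 they met YY1 at 27 of 32, beside 79.4%, MCRS1 at 17, beside 41.6%, and RUVBL2 at 6, beside 23.9%. The 5 without YY1 contact in Huh7 were CARS1, SARS1, NARS2, PARS2 and AIMP1; of these CARS1, SARS1 and AIMP1 had a YY1 peak elsewhere within 1 kb of a start.

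NARS2 had its INO80 peaks inside the gene, at positions 208 to 558 (HepG2) and 318 to 474 (Huh7), while its HepG2 YY1 peak lay from -86 to 205. SARS1 had INO80 from 87 to 233 in Huh7 and YY1 from 285 to 823. PARS2 had INO80 at 26 to 228 (HepG2) and 26 to 182 (Huh7), with the same upstream edge in both, and YY1 from -254 to 462 in HepG2 alone.

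The other cytosolic members had INO80 in both lines. FARSA and FARSB, the subunits of phenylalanyl-tRNA synthetase, had INO80 over 657 bp and 1462 bp in HepG2 and 604 bp and 489 bp in Huh7, and each kept MCRS1 in Huh7, over 217 bp and 227 bp. LARS1, the leucyl enzyme, had INO80 over 836 bp and 727 bp, and MARS1, the methionyl enzyme, over 452 bp and 289 bp. QARS1, the glutaminyl enzyme, had INO80 over 541 bp and 176 bp, NARS1, the asparaginyl enzyme, over 1376 bp and 1014 bp, and CARS1, the cysteinyl enzyme, over 635 bp and 234 bp. QARS1, CARS1, EPRS1 and FARSB had no RUVBL2 peak in HepG2 or Huh7 and no RUVBL1 peak in HepG2, as was the case for PARS2 and YARS2 among mitochondrial genes.

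Among the other mitochondrial members, FARS2, the phenylalanyl enzyme, had the widest INO80 peak of the group in Huh7, at 1301 bp, and 2158 bp in HepG2. It faces LYRM4, an iron-sulfur cluster assembly gene, at 94 bp. LARS2, the leucyl enzyme, had INO80 over 580 bp in HepG2 and 447 bp in Huh7, MARS2, the methionyl enzyme, over 898 bp and 617 bp, and AARS2, the alanyl enzyme, over 654 bp and 229 bp. RARS2, the arginyl enzyme, had INO80 over 752 bp and 208 bp, WARS2, the tryptophanyl enzyme, over 974 bp and 766 bp, and YARS2, the tyrosyl enzyme, over 1295 bp and 780 bp. YARS2 kept a broad MCRS1 peak in Huh7, at 961 bp, where the median over bound members was 228.5 bp.

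A coding start on the opposite strand lay within 1 kb of 13 members (35.1%), beside 13.7% of all coding genes. They were 6 cytosolic genes (AARS1, HARS1, KARS1, MARS1, WARS1 and YARS1), 5 mitochondrial genes (EARS2, FARS2, HARS2, RARS2 and SARS2) and both scaffolds. A peak at such a promoter cannot be assigned to one of the pair. RARS2 faces the replication origin gene ORC3 at 39 bp, and MARS1 has a start of ARHGAP9 635 bp away.

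Members with such a neighbour had INO80 peaks of median 1454 bp in HepG2, against 758 bp for the other 24, beside 1205 bp and 1094 bp over coding genes split the same way. RUVBL2 in HepG2 showed 1148 bp against 241 bp, beside 601 bp and 492 bp. MCRS1 in HepG2 showed 1535 bp against 950.5 bp, beside 1330 bp and 1086 bp. In Huh7, INO80 (680 bp against 468 bp), MCRS1 (274 bp against 227 bp) and YY1 (805.5 bp against 686.5 bp) ran the same way. Over coding genes these were 672 bp and 627 bp, 347.5 bp and 299 bp, and 791 bp and 628 bp. The remaining lists ran the other way at members. YY1 in HepG2 showed 868 bp against 897.5 bp (1095 bp and 858 bp over coding genes). RUVBL1 showed 233 bp against 406 bp (329 bp and 306 bp). RUVBL2 in Huh7 showed 278.5 bp against 459.5 bp (284 bp and 274 bp). RUVBL1 lay at 9 of the 13 and 7 of the 24, beside 39.6% and 13.2% of coding genes. MCRS1 in Huh7 lay at 11 of the 13 and 9 of the 24, beside 43.9% and 18.3%. INO80 in Huh7 lay at 10 of the 13 and 22 of the 24, beside 71.8% and 43.9%. The 3 genes missing from the 13 were HARS1, HARS2 and WARS1, and HARS1 and HARS2 are one promoter.

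The amino acid response raises many cytosolic synthetase genes through ATF4, which binds composite C/EBP-ATF elements. The letters TGATGNAAT, a form of that element, were in the windows of GARS1 and TARS1 (5.41% of members) and of 0.581% of all coding genes, in both cases on the strand opposite to the gene. With 1 mismatch allowed they were in 13 member windows, beside 11.1%. Their 30-base sites are shown with the match in capitals, on the minus strand of hg19.
GARS1 (chr7:30634449-30634478, minus strand): gctcggagcaTGATGAAATcgccgcgtaaa
TARS1 (chr5:33441061-33441090, minus strand): ctggaccagcTGATGCAATcgaaaggcgcc

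Both sites lay under INO80 and YY1 peaks in Huh7. In HepG2 both lay under YY1 and MCRS1, the GARS1 site lay also under INO80, and the TARS1 site lay outside the INO80 peak, which ran from position 91 to 367. GARS1 and TARS1 were among the 7 members with INO80 wider in Huh7. The rest of the 7 (EPRS1, YARS1, IARS1, SARS2 and TARS2) had no exact match, and a relation between these letters and width was not tested.

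Of the remaining motifs, GCATGCGC (NRF1, a factor known for genes of mitochondrial function) was in 3 member windows, all mitochondrial enzymes (MARS2, VARS2 and YARS2), which is 8.11% of members beside 4.26% of coding genes. TGACGTCA (CREB family) was in 2, LARS1 and AIMP2, beside 2.71%. CACGTG (E-box) was in 4, IARS1, VARS1, EARS2 and MARS2 (10.8%, beside 8.72%). GGGCGG (SP1 family) was in 27 (73.0%, beside 61.3%), and CCAAT (NF-Y) in 19 (51.4%, beside 36.0%). The median GC content of the windows was 62.0% for members and 63.7% for all coding genes.

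Other genes of tRNA charging, 14 in all, had INO80 at 13 in HepG2 and 11 in Huh7, beside 63.7% and 47.7% of coding genes, and YY1 at 14 in both, beside 62.6% and 51.5%. EEF1E1, a further protein of the multi-synthetase complex, had INO80 over 1669 bp in HepG2 and 339 bp in Huh7. Among 18 genes of the amino acid response INO80 lay at 17 in each line, beside the same 63.7% and 47.7%. The exceptions were CHAC1 in HepG2 and EIF2AK4, the kinase that senses uncharged tRNA, in Huh7. ATF4 itself was in all 9 lists, with INO80 over 4853 bp in HepG2 and 3563 bp in Huh7, wider than at any synthetase gene.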

How the data were processed

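Peak positions were used as deposited by the authors, on hg19, in 9 lists, 1 per factor and line. Per the submitters' processing notes the tools named were Bowtie2, SAMtools, deepTools, MACS2 and bedtools, without versions, and the builds were hg19 and dm3. The calling threshold, and any pooling of libraries before calling, are not stated by the labels or file headers. Per the series' design text, YY1 in HepG2 went through the same pipeline. Nothing says that libraries came from separate cultures. The acetylation, input and drug-treated libraries were not used here.

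Starts were those of basic protein-coding transcripts of GENCODE on hg19, genes counted by symbol. A gene counted as marked if a peak came to 1 kb or nearer of one of its starts. The widest such peak gave the width, and positions count from the MANE or canonical start (the reference start) as 0. Motifs were matched exactly on both strands of 300-base windows. Python 3.11.15, numpy 2.4.6 and matplotlib 3.10.9 were used, and the functions were tested on simulated peaks and sequences. Genes described in full were those without INO80 in a line, those in all 9 lists, the 3 widest INO80 peaks per line, members sharing a promoter with a member, and both scaffolds; TARS2 and other members named with positions were chosen after their values were seen. Members and lists were chosen with earlier results of these data known. Alternatives are given at the end. One gene of a related list is not reported here.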

Additional observations from a re-analysis of the deposited data

How the results depend on the processing

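Of 199 values recomputed, 148 stayed within 1.5 times of the reported count. These are counts without a sign, so direction was not among the things checked, and the order of the lines did turn under one setting given below. All 22 occupancy counts did so with peaks within 250 bp or 5 kb of a start, with starts of all annotated transcripts, with 1 start per gene, and without chromosomes 2, 14, 16, 17 and 20, an alternative added after the data were seen because HepG2 is known to carry extra copies of them. All 7 overlap counts did so with every peak set to 200 bp. Leaving out those chromosomes removed 6 of the 37 members, so most counts had little room to move beyond 1.5 times.

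Width mattered most. Keeping the wider 50% of each list left INO80 in HepG2 at 11 cytosolic and 10 mitochondrial genes, RUVBL1 at 4 and 3, RUVBL2 in HepG2 at 6 and 6, MCRS1 in Huh7 at 4 and 3, INO80 in Huh7 at 5 mitochondrial and RUVBL2 in Huh7 at 2 mitochondrial genes. Under that setting the lists marked 47.6% (INO80), 9.60% (RUVBL1) and 25.8% (RUVBL2) of coding genes in HepG2, and 12.4% (MCRS1), 30.4% (INO80) and 6.80% (RUVBL2) in Huh7. INO80 then marked 13 members in both lines, 10 in HepG2 alone, 4 in Huh7 alone and 10 in neither. With the 3322 widest peaks of each list, cytosolic and mitochondrial counts were 2 and 2 for INO80, 4 and 2 for MCRS1, 4 and 4 for RUVBL1, 5 and 3 for RUVBL2 and 3 and 5 for YY1 in HepG2. In Huh7 they were 6 and 1 for INO80, 4 and 3 for MCRS1 and 7 and 3 for YY1. INO80 then marked 4 members in both lines, 2 in HepG2 alone, 4 in Huh7 alone and 27 in neither. On that setting INO80 marked 6 members in HepG2, beside 15.6% of coding genes, and 8 in Huh7, beside 15.3%, so the order of the lines (37 and 32) turned. It also turned for MCRS1 (7 in HepG2 and 9 in Huh7) and YY1 (9 and 10), and it held for RUVBL2 (9 and 8). The other lists then marked 11.2% to 16.2% of coding genes.

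With the peak centre within 250 bp of a start, RUVBL2 in HepG2 lay at 6 cytosolic and 12 mitochondrial genes, beside 24.5% of coding genes. INO80 then marked 20 members in both lines, 9 in HepG2 alone, 5 in Huh7 alone and 3 in neither. Of all coding genes it marked 39.7% in HepG2 and 28.1% in Huh7. With at least 50% of the INO80 peak covered, it met RUVBL2 at 12 and RUVBL1 at 8 members in HepG2. In Huh7 it met MCRS1 at 10 and RUVBL2 at 3 members. Shares over all INO80-bound coding genes were not computed under this rule, and those given earlier for any overlap do not apply to these counts. Whether the lower counts are particular to members was therefore not tested.

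With 1 mismatch allowed the motifs were in 19 (ATGGCGGC), 20 (CCGGAAGT), 17 (GCATGCGC), 5 (TGACGTCA), 13 (TGATGNAAT), 25 (CACGTG), 36 (CCAAT) and 16 (TATAAA) member windows, beside 34.4%, 29.8%, 28.4%, 12.2%, 11.1%, 65.8%, 98.2% and 50.9% of coding genes in the same order. No paired analysis was possible because each factor has 1 peak list per line and no result comes from a test. Without read depth, a missing peak cannot be told from one below the calling threshold.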
